A study of Mus musculus with 24 samples.

Results

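Interferon-stimulated genes were described in the terminal ileum of mice with and without a gut microbiota. They were a list of 44 genes whose transcription interferons are known to raise, taken as listed. Of these, 40 had a probe set of their own on the array, out of 18820 genes measured in this way. Dtx3l and Parp9 lay only on probe sets that they share, Igtp only on one shared with Irgm2, and no probe set was found for Ifi44. Every count below is out of these 40 genes unless another number is given.

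Each of 24 male C57BL/6OlaHsd mice of 8 weeks gave 1 Affymetrix Mouse Gene 1.1 ST array. There were 6 groups of 4 mice. Germ-free mice received long-chain β2→1-fructan, short-chain β2→1-fructan or water, and conventional mice received the same 3 gavages. Each fructan was given at 10 mg per day for 5 days. All mice had eaten the low-fat diet D12450B for at least 2 weeks. Conventional mice were specified pathogen-free animals bought from a supplier, and germ-free mice came from the breeding colony of a university, so the source of the mice and colonization cannot be told apart. For the germ-free mice the short-chain fructan was filtered and the long-chain fructan was irradiated, which broke down some of its longer chains. The fructans given to germ-free and conventional mice were therefore not identical preparations.

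Interferons are secreted proteins that bind receptors on the cell surface and, through the kinases of the Janus family, activate complexes of STAT proteins. Type I and type III interferons act mainly at interferon-stimulated response elements, and interferon-gamma acts mainly at gamma-activated sites. The induced proteins sense viral nucleic acids, block viral translation and replication, tag proteins, attack the vacuoles of intracellular microbes and cut and carry peptides for MHC class I molecules.

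Values are log2 expression, so a difference of 1 is a doubling, and differences are given as germ-free minus conventional or as fructan minus water or long-chain minus short-chain. Where 3 values of a gene are given without a gavage, they are for long-chain fructan, short-chain fructan and water in turn. A gene was called when the unadjusted p was under 0.01 and the fold change over 1.3, the thresholds of the study, and adjusted p are Benjamini-Hochberg values over all 18820 genes. Array medians were 4.92 to 4.98, and arrays of a group correlated at 0.99 to 0.995 over all genes (36 pairs). Enterocyte markers, among them the ileal bile acid carrier gene Fabp6 (12.38 to 12.80 in the 24 mice), were present in every mouse, with summed linear levels of 19300 to 23100 in the germ-free mice and 19300 to 21500 in the conventional mice.

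The stretches before the start sites of the genes hold the 2 motifs named above in only some cases. In the RefSeq table of mouse promoters (build GRCm38.p6), 31 of the 40 genes had an entry, and the 250 bases upstream of each start were searched on both strands. The core of the interferon-stimulated response element, GAAANNGAAA or its reverse complement TTTCNNTTTC, was found for 12 of the 31 genes (38.7%), against 936 of 27018 genes in the whole table (3.46%). The gamma-activated site TTCNNNGAA, which is its own reverse complement, was found for 7 of the 31 (22.6%), against 2197 of 27018 (8.13%). Overlapping matches were each counted. The upstream sequences of 6 genes are shown because they span the results: Ifit1, Gbp3 and Isg15 with response elements, Irf1 and Psmb8 with a gamma-activated site, and Rsad2 with a response element but no called difference between germ-free and conventional mice. The sequences run 5′ to 3′ in the direction of the gene, with motif letters in capitals. Ifit1 lies at chr19:34640639-34640888 on the plus strand, Gbp3 at chr3:142559794-142560043 on the plus strand, Isg15 at chr4:156200819-156201068 on the minus strand, Irf1 at chr11:53769764-53770013 on the plus strand, Psmb8 at chr17:34197945-34198194 on the plus strand and Rsad2 at chr12:26456453-26456702 on the minus strand.
Ifit1: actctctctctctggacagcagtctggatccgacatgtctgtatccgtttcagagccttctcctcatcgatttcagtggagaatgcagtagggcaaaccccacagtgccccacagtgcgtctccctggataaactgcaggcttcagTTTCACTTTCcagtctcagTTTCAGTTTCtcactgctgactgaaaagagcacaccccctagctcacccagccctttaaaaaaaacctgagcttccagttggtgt
Gbp3: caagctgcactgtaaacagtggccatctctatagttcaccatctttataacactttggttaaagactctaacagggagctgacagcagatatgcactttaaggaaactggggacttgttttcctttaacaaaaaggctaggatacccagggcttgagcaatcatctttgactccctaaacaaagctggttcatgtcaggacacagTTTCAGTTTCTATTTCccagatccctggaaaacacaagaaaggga
Isg15: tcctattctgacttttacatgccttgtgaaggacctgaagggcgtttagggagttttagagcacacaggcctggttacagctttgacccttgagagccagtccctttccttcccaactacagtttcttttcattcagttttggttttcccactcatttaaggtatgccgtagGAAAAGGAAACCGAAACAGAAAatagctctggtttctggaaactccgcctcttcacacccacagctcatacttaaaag
Irf1: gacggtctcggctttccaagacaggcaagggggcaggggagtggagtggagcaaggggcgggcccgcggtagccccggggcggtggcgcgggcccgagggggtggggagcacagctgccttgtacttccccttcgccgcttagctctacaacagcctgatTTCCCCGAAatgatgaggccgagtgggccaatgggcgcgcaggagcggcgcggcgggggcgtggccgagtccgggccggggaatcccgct
Psmb8: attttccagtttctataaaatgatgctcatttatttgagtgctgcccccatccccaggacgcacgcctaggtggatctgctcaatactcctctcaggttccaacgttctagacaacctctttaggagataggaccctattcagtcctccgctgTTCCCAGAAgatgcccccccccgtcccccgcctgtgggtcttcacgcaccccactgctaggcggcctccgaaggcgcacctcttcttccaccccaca
Rsad2: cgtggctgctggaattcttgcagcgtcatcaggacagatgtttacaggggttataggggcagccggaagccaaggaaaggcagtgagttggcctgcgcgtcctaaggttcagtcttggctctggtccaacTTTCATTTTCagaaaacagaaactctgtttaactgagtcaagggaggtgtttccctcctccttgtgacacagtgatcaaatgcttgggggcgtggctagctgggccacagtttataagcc
Ifit1 holds 2 separate matches, Gbp3 holds 2 that overlap and Isg15 holds 3 that overlap. A match is a string of letters and was not tested as a binding site.

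Germ-free mice had lower levels of most interferon-stimulated genes than conventional mice, whichever gavage they had received. After long-chain fructan 32 of the 40 genes were lower in germ-free mice, where 6.26% of all genes were called lower. After short-chain fructan 30 were lower (4.47% of all genes), and on water 24 were lower (5.96% of all genes). None was called higher in any of the 3 comparisons, by limma or under any other setting tried, while 3.43%, 4.29% and 2.77% of all genes were. At an adjusted p under 0.05 the counts were 32, 31 and 24 lower, with 8.58%, 6.21% and 7.93% of all genes. The median difference of the 40 genes was -0.70, -0.55 and -0.53, against 0.035, 0.028 and 0.012 for all genes.

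The 3 comparisons use different mice, so their calls can be set side by side. For 24 of the 40 genes (60%) the germ-free mice were lower after all 3 gavages, as they were for 538 of 18820 genes (2.86%). A further 5 genes were lower after 2 gavages and 4 after 1 gavage, and 7 were called after none. For 15 genes (37.5%, against 2.44% of all genes) the highest of the 12 germ-free mice was below the lowest of the 12 conventional mice. These 15 were Ifih1, Zbp1, Irf1, Stat2, Ifit1, Oasl2, Trim30a, Gbp3, Gbp7, Psmb8, Psmb9, Tap1, Tap2, Tapbp and Xaf1. Within a gavage the groups did not overlap, germ-free lower, for 31 genes after long-chain (8.88% of all genes), 24 after short-chain (7.86%) and 28 on water (9.37%), and with 4 mice against 4 the exact permutation test cannot go below p = 0.029 for a single gene.

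**Figure D1:**
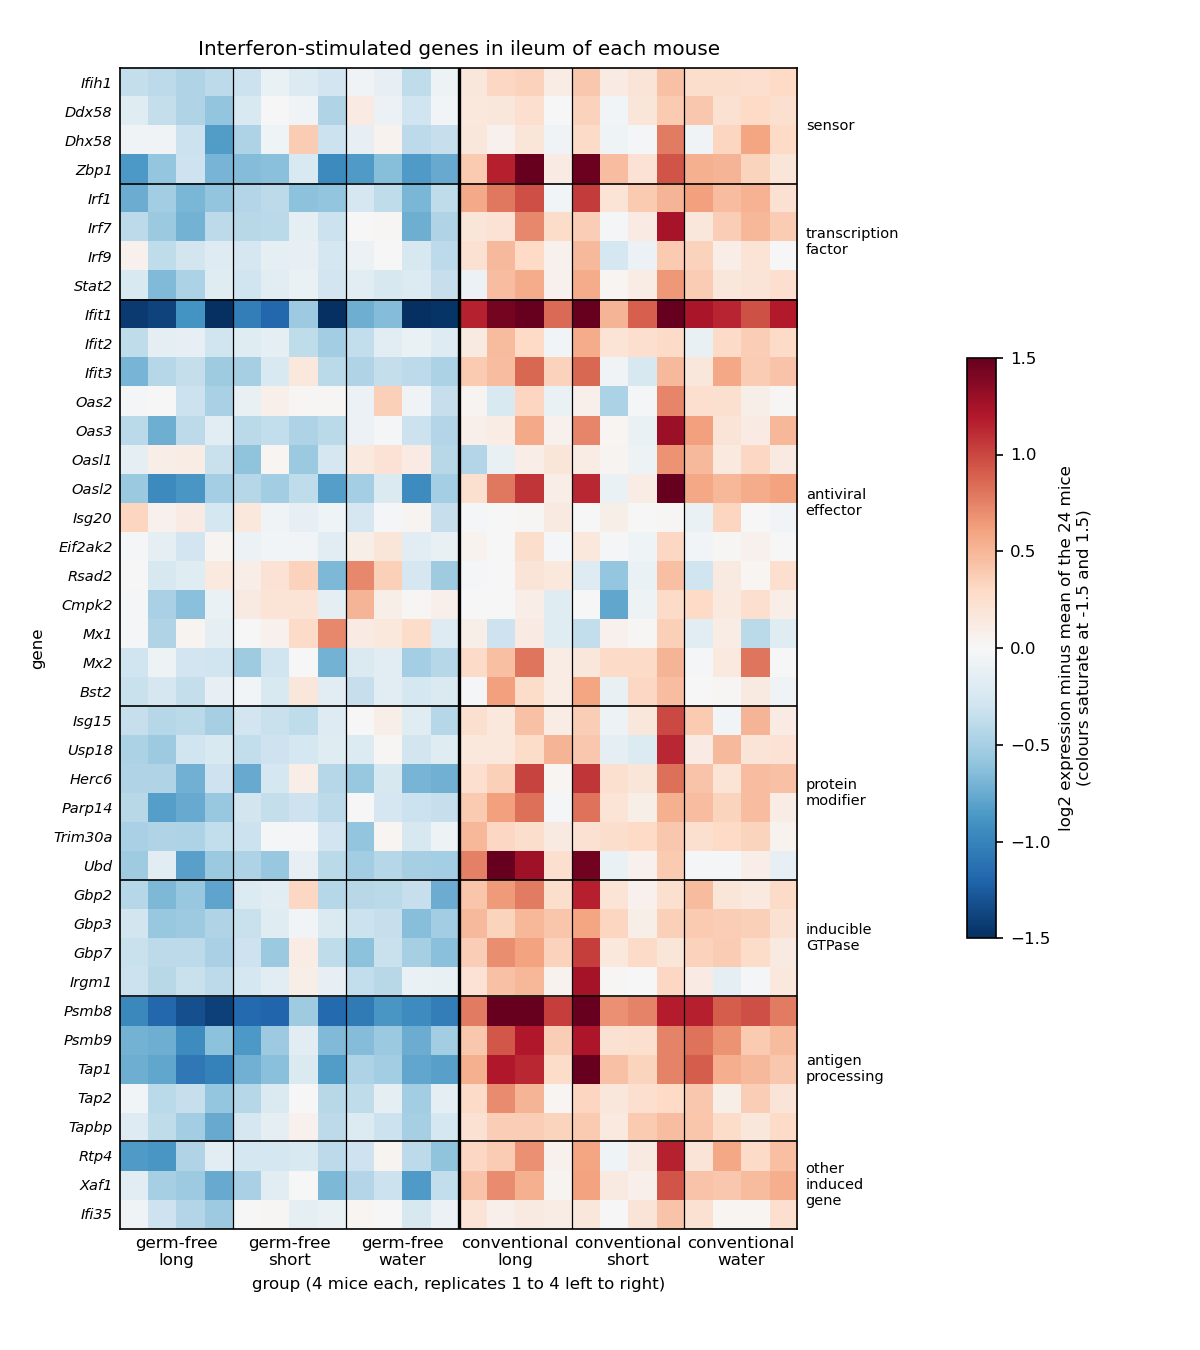
Each row is 1 of the 40 genes, grouped by role, and each column 1 mouse, with germ-free groups to the left of the heavy line and conventional groups to its right. Colour is log2 expression minus the gene's mean over the 24 mice, blue below and red above. Most rows are blue in germ-free mice and red in conventional mice, and the rows of Isg20, Eif2ak2, Rsad2, Cmpk2 and Mx1 show little of this split.

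Markers of T cells, macrophages and dendritic cells and plasma cells were lower in germ-free mice for many of the genes measured. Of 8 T cell and intraepithelial lymphocyte markers, 8 were lower in germ-free mice after long-chain fructan, 7 after short-chain and 7 on water. Their summed linear level was 199 to 215, 200 to 286 and 212 to 245 in the 3 germ-free groups, against 601 to 793, 496 to 887 and 593 to 866 in the conventional groups of the same gavage. The CD3 chain gene Cd3g differed by -2.52, -2.35 and -2.41, and Gzma, a granzyme of cytotoxic lymphocytes, by -3.41, -3.14 and -2.99. Macrophage and dendritic cell markers were lower for 6, 2 and 3 of 7, with summed levels of 619 to 682, 686 to 788 and 629 to 784 in germ-free mice, against 940 to 996, 898 to 987 and 864 to 964 in conventional mice. B cell markers were lower for 0, 1 and 2 of 5, with medians of 0.09, -0.23 and -0.27, and their summed levels were 89.6 to 172, 76.3 to 98.9 and 78.6 to 98.7 in germ-free mice, against 112 to 134, 104 to 132 and 113 to 146 in conventional mice, overlapping after long-chain fructan. Plasma cell markers were lower for 3 of 5 after each gavage, and plasmacytoid dendritic cell markers for 2, 1 and 2 of 3. These plasmacytoid calls were of Ccr9 and Tcf4, while the other marker, Siglech, differed by 0.30, 0.28 and 0.07 and was not called. Smooth muscle markers were lower for 3, 1 and 3 of 4 and Paneth cell markers for 2 of 3. Adipocyte markers were higher for 4, 4 and 3 of 4. The 6 enterocyte markers differed by -0.13 to 0.24 and the 4 goblet cell markers by -0.18 to 0.06 over the 3 comparisons. The part of these shifts in the difference of the interferon-stimulated genes was not tested, and in whole tissue fewer cells of a type and less RNA per cell cannot be told apart.

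**Figure D2:**
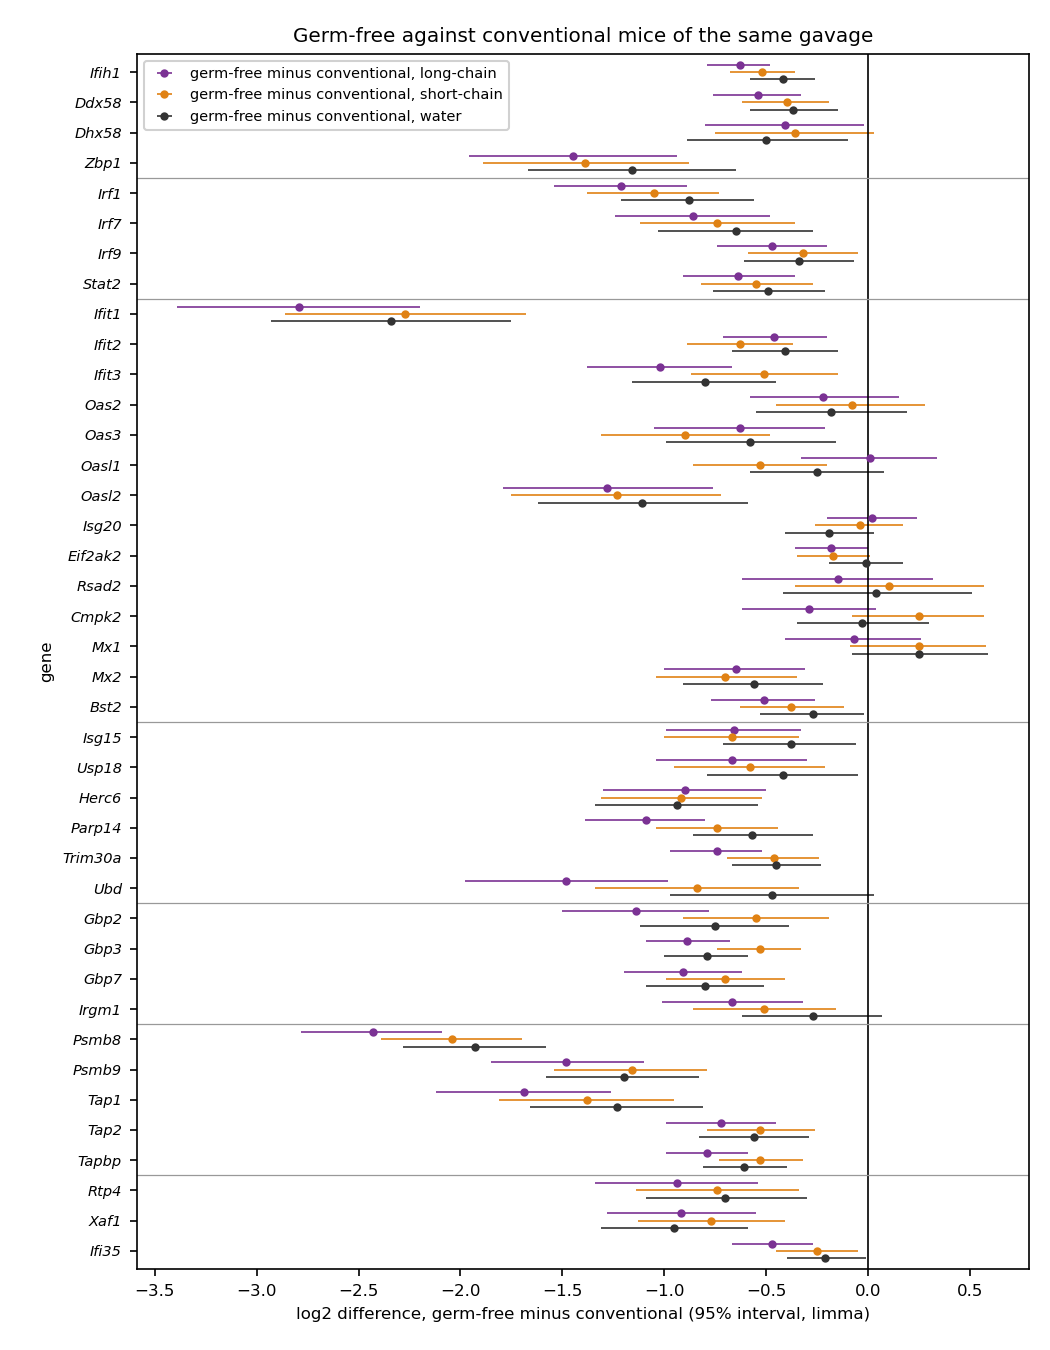
Points are the log2 difference, germ-free minus conventional, of each of the 40 genes after long-chain fructan, after short-chain fructan and on water, and bars are 95% intervals of limma (4 mice per group). Horizontal lines separate the roles. Ifit1 and Psmb8 lie farthest to the left, at -2.79 and -2.43 after long-chain fructan.

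The antigen processing genes were lower in germ-free mice in all comparisons, 5 of 5 after each gavage, with medians of -1.48, -1.16 and -1.20. Psmb8 and Psmb9 encode catalytic subunits of the immunoproteasome, which cuts proteins into peptides that suit MHC class I. Psmb8 was 6.47, 6.26, 6.12 and 6.04 in the germ-free mice after long-chain fructan, against 8.22, 8.96, 8.98 and 8.47 in the conventional mice. After short-chain fructan the Psmb8 values were 6.27, 6.25, 6.91 and 6.27 in germ-free mice and 8.95, 8.12, 8.18 and 8.62 in conventional mice. On water Psmb8 was 6.38, 6.57, 6.50 and 6.40 in germ-free mice and 8.60, 8.34, 8.40 and 8.22 in conventional mice. No germ-free value came near a conventional one, although replicate 3 of the germ-free short-chain mice stood above the other 3 of its group. The Psmb8 difference was -2.43 (SE 0.17, adjusted p = 1.3e-10) after long-chain fructan, -2.04 (SE 0.17, adjusted p = 3.3e-09) after short-chain fructan and -1.93 (SE 0.17, adjusted p = 9.6e-09) on water, that is 5.4-fold, 4.12-fold and 3.81-fold lower.

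In the germ-free mice Psmb9 measured 6.11, 6.09, 5.87 and 6.20 after long-chain fructan, against 7.22, 7.75, 8.02 and 7.19 in conventional mice. The short-chain fructan groups had Psmb9 values of 5.96, 6.27, 6.66 and 6.15 in germ-free and 8.03, 7.05, 7.06 and 7.56 in conventional mice. Psmb9 on water was 6.17, 6.26, 6.07 and 6.30 in germ-free mice, against 7.63, 7.49, 7.21 and 7.29 in conventional mice. All 12 germ-free mice were below all 12 conventional mice. The Psmb9 differences were -1.48, -1.16 and -1.20, each with an SE of 0.18 and with adjusted p of 2e-06, 5.6e-05 and 4.3e-05. Tap1 and Tap2 form the transporter that carries peptides into the endoplasmic reticulum. For Tap1, germ-free mice had 6.06, 6.02, 5.72 and 5.78 and conventional mice had 7.33, 8.0, 7.93 and 7.07 after long-chain fructan. With short-chain fructan, Tap1 was 6.07, 6.17, 6.58 and 5.96 in germ-free and 8.39, 7.24, 7.13 and 7.54 in conventional mice. Water gavage gave Tap1 values of 6.33, 6.27, 6.02 and 5.98 in germ-free mice and 7.70, 7.34, 7.28 and 7.20 in conventional mice. Conventional mice spread more widely than germ-free mice after either fructan, and the 2 sets did not overlap. Tap1 differed by -1.69, -1.38 and -1.23 (SE 0.21, adjusted p 2e-06, 3.4e-05 and 0.00016).

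Tap2 values were 6.03, 5.66, 5.72 and 5.48 in germ-free mice and 6.35, 6.77, 6.57 and 6.10 in conventional mice that received long-chain fructan. Short-chain fructan left Tap2 at 5.64, 5.85, 6.06 and 5.65 in germ-free mice, against 6.39, 6.23, 6.32 and 6.36 in conventional mice. Tap2 stood at 5.69, 5.93, 5.54 and 5.92 in germ-free mice on water, against 6.47, 6.15, 6.43 and 6.26 in conventional mice on water. These groups were again apart, by less than for Tap1. Tap2 differed by -0.72, -0.53 and -0.56 (SE 0.13, adjusted p 0.00032, 0.0066 and 0.0044). Tapbp encodes tapasin, which helps load peptides on class I molecules. In the germ-free mice Tapbp measured 8.68, 8.49, 8.35 and 8.11 after long-chain fructan, against 9.10, 9.24, 9.24 and 9.20 in conventional mice. The short-chain fructan groups had Tapbp values of 8.62, 8.74, 8.93 and 8.48 in germ-free and 9.26, 9.02, 9.26 and 9.33 in conventional mice. Tapbp on water was 8.67, 8.55, 8.37 and 8.61 in germ-free mice, against 9.29, 9.14, 9.04 and 9.16 in conventional mice. Its conventional values lay close together, and every germ-free value was below them. The difference was -0.79, -0.53 and -0.61 (SE 0.1, adjusted p 2.8e-06, 0.00051 and 0.00011). In GRCm38.p6, Psmb9 (34182030 to 34187330), Tap1 (34187556 to 34197225), Psmb8 (34198195 to 34201454) and Tap2 (34204479 to 34216321) lie side by side on chromosome 17, and the upstream windows of Psmb9 and Tap1, which face away from each other, overlap and held no match to either motif.

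Of the 14 antiviral effectors, 7 were lower in germ-free mice after long-chain fructan, 7 after short-chain and 6 on water. Ifit1 encodes a protein that binds viral RNA lacking the methylated cap of the host. For Ifit1, germ-free mice had 4.82, 4.87, 5.36 and 4.26 and conventional mice had 7.41, 7.69, 8.30 and 7.10 after long-chain fructan. With short-chain fructan, Ifit1 was 5.22, 5.08, 5.71 and 4.76 in germ-free and 7.99, 6.76, 7.15 and 7.94 in conventional mice. Water gavage gave Ifit1 values of 5.52, 5.61, 4.26 and 4.79 in germ-free mice and 7.48, 7.40, 7.21 and 7.44 in conventional mice. The lowest conventional mouse, at 6.76, stood above the highest germ-free mouse, at 5.71. The Ifit1 difference was -2.79 (SE 0.29, adjusted p = 1.4e-07) after long-chain fructan, -2.27 (SE 0.29, adjusted p = 3.2e-06) after short-chain fructan and -2.34 (SE 0.29, adjusted p = 2.5e-06) on water, that is 6.94-fold, 4.82-fold and 5.07-fold lower.

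Ifit2 and Ifit3 encode relatives of Ifit1 with the same kind of repeats. Ifit2 values were 3.76, 3.99, 4.01 and 3.84 in germ-free mice and 4.27, 4.61, 4.44 and 4.10 in conventional mice that received long-chain fructan. Short-chain fructan left Ifit2 at 3.95, 4.0, 3.75 and 3.61 in germ-free mice, against 4.69, 4.34, 4.39 and 4.42 in conventional mice. Ifit2 stood at 3.77, 3.98, 4.04 and 3.94 in germ-free mice on water, against 4.03, 4.42, 4.50 and 4.42 in conventional mice on water. Replicate 1 of the conventional water mice was low for its group and fell among the germ-free water mice. Ifit2 differed by -0.46, -0.63 and -0.41 (SE 0.13, adjusted p 0.014, 0.00086 and 0.028), and its call was lost without germ-free replicate 1 or conventional replicate 3 on water and without conventional replicate 2 after long-chain fructan, where the differences closest to 0 were -0.36 and -0.37. Ifit3 was 4.52, 4.78, 4.85 and 4.68 in the germ-free mice after long-chain fructan, against 5.61, 5.68, 6.07 and 5.56 in the conventional mice. After short-chain fructan the Ifit3 values were 4.72, 4.98, 5.37 and 4.81 in germ-free mice and 6.08, 5.16, 4.97 and 5.70 in conventional mice. On water Ifit3 was 4.76, 4.85, 4.82 and 4.74 in germ-free mice and 5.38, 5.79, 5.59 and 5.64 in conventional mice. Groups were apart after long-chain fructan and on water and overlapped after short-chain, where germ-free replicate 3 was high and conventional replicates 2 and 3 were low. Ifit3 differed by -1.02, -0.51 and -0.80 (SE 0.17, adjusted p 0.00015, 0.047 and 0.0021), and the short-chain value was -0.31, not called, without conventional replicate 1; leaving out conventional replicate 4 or germ-free replicate 1, 2 or 4 also ended that call.

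Oasl2 encodes a relative of the oligoadenylate synthetases, which activate an RNA-degrading enzyme. In the germ-free mice Oasl2 measured 6.80, 6.40, 6.48 and 6.85 after long-chain fructan, against 7.60, 8.15, 8.43 and 7.46 in conventional mice. The short-chain fructan groups had Oasl2 values of 6.93, 6.83, 6.97 and 6.53 in germ-free and 8.49, 7.26, 7.47 and 8.98 in conventional mice. Oasl2 on water was 6.85, 7.14, 6.41 and 6.85 in germ-free mice, against 7.94, 7.86, 7.91 and 7.96 in conventional mice. Conventional short-chain replicates 1 and 4 were far above replicates 2 and 3, and all of them were above the germ-free mice. Oasl2 differed by -1.28, -1.23 and -1.11 (SE 0.25, adjusted p 0.00071, 0.001 and 0.0032).

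Several well-known effectors were not called. Isg20, Eif2ak2, Rsad2, Cmpk2, Mx1 and Oas2, together with the sensor Dhx58, passed the thresholds after no gavage. The group means of Oas2, 4.29 to 4.65, were under the array medians of 4.92 to 4.98. Those of Mx1, 4.55 to 4.97, and of Dhx58, 4.53 to 5.14, lay under or near these medians. Low levels of Oas2, Mx1 and Dhx58 may not stand clear of background, so the missing calls do not show that they were unchanged. The group means of Isg20, Eif2ak2, Rsad2 and Cmpk2 were above the array medians. Rsad2, an enzyme that makes a chain-terminating nucleotide, is given here as an example chosen after its values were seen. For Rsad2, germ-free mice had 5.26, 5.01, 5.07 and 5.40 and conventional mice had 5.23, 5.25, 5.45 and 5.41 after long-chain fructan. With short-chain fructan, Rsad2 was 5.35, 5.47, 5.60 and 4.58 in germ-free and 5.06, 4.67, 5.15 and 5.71 in conventional mice. Water gavage gave Rsad2 values of 5.98, 5.61, 5.0 and 4.72 in germ-free mice and 4.95, 5.39, 5.28 and 5.51 in conventional mice. The germ-free and conventional mice overlapped after each gavage. The Rsad2 difference was -0.15 (95% interval -0.62 to 0.32), 0.10 (-0.36 to 0.57) and 0.04 (-0.42 to 0.51). For Eif2ak2, the kinase that stops translation in infected cells and likewise chosen after its values were seen, the intervals were -0.36 to 0.0, -0.35 to 0.01 and -0.19 to 0.17, which leave out a fold of 1.3 in either direction. The 4 genes of these 7 that had a promoter entry included 1 with a response element and 2 with a gamma-activated site, against 8 and 4 of the 19 entries among genes lower after all 3 gavages.

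All 4 transcription factors were lower in germ-free mice after long-chain fructan and 3 of 4 after short-chain and on water. Irf1 is a factor that interferon-gamma induces and that acts on MHC class I genes. Irf1 values were 7.24, 7.46, 7.30 and 7.40 in germ-free mice and 8.56, 8.78, 8.95 and 7.95 in conventional mice that received long-chain fructan. Short-chain fructan left Irf1 at 7.55, 7.59, 7.37 and 7.40 in germ-free mice, against 9.04, 8.19, 8.38 and 8.50 in conventional mice. Irf1 stood at 7.73, 7.61, 7.30 and 7.60 in germ-free mice on water, against 8.60, 8.45, 8.51 and 8.21 in conventional mice on water. Conventional replicate 4 after long-chain fructan was the lowest of the conventional mice, at 7.95, and still above the highest germ-free mouse, at 7.73. Irf1 differed by -1.21, -1.05 and -0.88 (SE 0.16, adjusted p 4.5e-06, 3.2e-05 and 0.00032). With the mean of the Irf1 probe sets in place of the brightest, the calls stood and the differences were -0.76, -0.58 and -0.60. Stat2 is a component of the complex that type I and type III interferons activate. Stat2 was 6.83, 6.40, 6.58 and 6.88 in the germ-free mice after long-chain fructan, against 6.97, 7.52, 7.62 and 7.12 in the conventional mice. After short-chain fructan the Stat2 values were 6.76, 6.90, 6.96 and 6.77 in germ-free mice and 7.61, 7.09, 7.17 and 7.71 in conventional mice. On water Stat2 was 6.90, 6.82, 6.85 and 6.71 in germ-free mice and 7.44, 7.23, 7.25 and 7.31 in conventional mice. Its germ-free and conventional mice did not overlap within or across gavages. Stat2 differed by -0.64, -0.55 and -0.49 (SE 0.13, adjusted p 0.0014, 0.0055 and 0.014).

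Irf7, the factor that amplifies interferon-alpha genes, differed by -0.86, -0.74 and -0.65, and Irf9, the partner of Stat2, by -0.47, -0.32 and -0.34, of which only the long-chain value was called. Without conventional replicate 4 the short-chain difference of Irf7 was -0.47, and without germ-free replicate 3 its water difference was -0.51 and not called.

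Among the 4 sensors, 3 were lower in germ-free mice after long-chain fructan, 3 after short-chain and 2 on water. Ifih1 encodes a sensor of long double-stranded RNA in the cytosol. In the germ-free mice Ifih1 measured 8.17, 8.14, 8.08 and 8.14 after long-chain fructan, against 8.70, 8.84, 8.88 and 8.64 in conventional mice. The short-chain fructan groups had Ifih1 values of 8.21, 8.43, 8.33 and 8.24 in germ-free and 8.94, 8.65, 8.72 and 8.97 in conventional mice. Ifih1 on water was 8.48, 8.41, 8.15 and 8.46 in germ-free mice, against 8.79, 8.79, 8.78 and 8.83 in conventional mice. Mice of a group lay close together, and no germ-free mouse reached a conventional one. Ifih1 differed by -0.63, -0.52 and -0.42 (SE 0.077, adjusted p 1.6e-06, 2.7e-05 and 0.00037), and on water the difference was -0.35, under the fold threshold, without germ-free replicate 3. Ddx58 encodes the sensor that recognises the ends of viral RNA. For Ddx58, germ-free mice had 7.38, 7.21, 7.11 and 6.97 and conventional mice had 7.73, 7.74, 7.82 and 7.56 after long-chain fructan. With short-chain fructan, Ddx58 was 7.34, 7.56, 7.51 and 7.12 in germ-free and 7.91, 7.52, 7.75 and 7.96 in conventional mice. Water gavage gave Ddx58 values of 7.69, 7.48, 7.27 and 7.52 in germ-free mice and 7.97, 7.79, 7.87 and 7.81 in conventional mice. The groups overlapped after short-chain fructan, where conventional replicate 2 was below germ-free replicate 2. Ddx58 differed by -0.54, -0.40 and -0.37 (SE 0.11, adjusted p 0.00064, 0.0092 and 0.019), the water value being under the fold threshold. The short-chain call was lost without conventional replicate 1 or 4 or germ-free replicate 4, with -0.32 as the value closest to 0.

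Zbp1 encodes a sensor of left-handed nucleic acid that can start cell death. Zbp1 values were 5.02, 5.30, 5.57 and 5.19 in germ-free mice and 6.27, 7.05, 7.57 and 6.0 in conventional mice that received long-chain fructan. Short-chain fructan left Zbp1 at 5.23, 5.25, 5.65 and 4.93 in germ-free mice, against 7.35, 6.34, 6.10 and 6.83 in conventional mice. Zbp1 stood at 5.03, 5.24, 5.03 and 5.13 in germ-free mice on water, against 6.42, 6.39, 6.21 and 6.06 in conventional mice on water. The conventional fructan groups spread over more than a unit each, and all of their mice stayed above the germ-free mice. Zbp1 differed by -1.45, -1.39 and -1.16 (SE 0.25, adjusted p 0.00015, 0.00024 and 0.0017), that is 2.73-fold, 2.62-fold and 2.24-fold lower.

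All 4 inducible GTPases with their own probe set were lower in germ-free mice after long-chain fructan, 4 after short-chain and 3 on water. Guanylate-binding proteins gather on the vacuoles of intracellular microbes. Gbp3 was 5.73, 5.44, 5.46 and 5.56 in the germ-free mice after long-chain fructan, against 6.49, 6.34, 6.50 and 6.42 in the conventional mice. After short-chain fructan the Gbp3 values were 5.67, 5.82, 5.97 and 5.79 in germ-free mice and 6.60, 6.33, 6.09 and 6.37 in conventional mice. On water Gbp3 was 5.69, 5.66, 5.37 and 5.49 in germ-free mice and 6.40, 6.38, 6.37 and 6.23 in conventional mice. The 2 sets of mice were apart throughout, with the short-chain germ-free mice the highest of the germ-free groups on average. Gbp3 differed by -0.89 (SE 0.1, adjusted p = 5.8e-07) after long-chain fructan, -0.53 (SE 0.1, adjusted p = 0.00043) after short-chain fructan and -0.79 (SE 0.1, adjusted p = 3.3e-06) on water. In the germ-free mice Gbp7 measured 7.20, 7.14, 7.14 and 7.05 after long-chain fructan, against 7.91, 8.23, 8.14 and 7.88 in conventional mice. The short-chain fructan groups had Gbp7 values of 7.23, 6.98, 7.65 and 7.15 in germ-free and 8.57, 7.69, 7.82 and 7.72 in conventional mice. Gbp7 on water was 6.92, 7.20, 7.04 and 6.91 in germ-free mice, against 7.88, 7.92, 7.81 and 7.67 in conventional mice. Conventional short-chain replicate 1 was well above its group, and germ-free short-chain replicate 3 came closest to the conventional mice, at 7.65 against a lowest conventional value of 7.67. Gbp7 differed by -0.91, -0.70 and -0.80 (SE 0.14, adjusted p 5.2e-05, 0.001 and 0.00027).

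For Gbp2, germ-free mice had 6.06, 5.82, 5.92 and 5.70 and conventional mice had 6.90, 7.13, 7.27 and 6.75 after long-chain fructan. With short-chain fructan, Gbp2 was 6.28, 6.32, 6.80 and 6.06 in germ-free and 7.66, 6.69, 6.55 and 6.73 in conventional mice. Water gavage gave Gbp2 values of 6.07, 6.08, 6.14 and 5.74 in germ-free mice and 6.96, 6.67, 6.64 and 6.78 in conventional mice. Germ-free short-chain replicate 3 overlapped the conventional mice. Gbp2 differed by -1.14, -0.55 and -0.75 (SE 0.18, adjusted p 4.6e-05, 0.035 and 0.004). The short-chain difference of Gbp2 was -0.29, and not called, without conventional replicate 1, and that call also ended without germ-free replicate 1, 2 or 4. Irgm1, an immunity-related GTPase, differed by -0.67, -0.51 and -0.27, and its short-chain difference without conventional replicate 1 was -0.23 and not called, as was also the case without germ-free replicate 1, 2 or 4. The probe set that Irgm2 shares with Igtp, which are relatives of Irgm1, differed by -1.49, -1.0 and -1.01, and the signals of the 2 genes cannot be told apart on it. After short-chain fructan that probe set was at 4.90, 4.61, 5.54 and 4.86 in germ-free mice, against 7.08, 5.64, 5.43 and 5.76 in conventional mice. Conventional replicate 1 was far above its group and germ-free replicate 3 overlapped the conventional mice (exact permutation p = 0.057). Without conventional replicate 1 the short-chain difference was -0.63 and still called.

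Of the 6 protein modifiers with their own probe set, 6 were lower in germ-free mice after long-chain fructan, 6 after short-chain and 3 on water. Parp14 encodes an ADP-ribosyltransferase. Parp14 values were 7.64, 7.23, 7.30 and 7.48 in germ-free mice and 8.44, 8.67, 8.88 and 8.02 in conventional mice that received long-chain fructan. Short-chain fructan left Parp14 at 7.78, 7.69, 7.74 and 7.66 in germ-free mice, against 8.86, 8.26, 8.14 and 8.58 in conventional mice. Parp14 stood at 8.06, 7.80, 7.73 and 7.71 in germ-free mice on water, against 8.51, 8.38, 8.51 and 8.16 in conventional mice on water. Conventional replicate 4 after long-chain fructan was the lowest of the conventional mice and lay between the germ-free water mice. Parp14 differed by -1.09, -0.74 and -0.57 (SE 0.14, adjusted p 5.5e-06, 0.00068 and 0.0085). Trim30a encodes a tripartite motif protein that dampens inflammatory signalling in mice. Trim30a was 5.71, 5.74, 5.73 and 5.82 in the germ-free mice after long-chain fructan, against 6.69, 6.50, 6.46 and 6.32 in the conventional mice. After short-chain fructan the Trim30a values were 5.87, 6.17, 6.16 and 5.90 in germ-free mice and 6.42, 6.45, 6.49 and 6.59 in conventional mice. On water Trim30a was 5.60, 6.22, 5.95 and 6.11 in germ-free mice and 6.43, 6.49, 6.52 and 6.24 in conventional mice. The lowest conventional mouse, at 6.24, was just above the highest germ-free mouse, at 6.22. Trim30a differed by -0.74, -0.46 and -0.45 (SE 0.11, adjusted p 2.3e-05, 0.0039 and 0.0056), and on water the difference was -0.33, under the fold threshold, without germ-free replicate 1.

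Ubd encodes a ubiquitin-like modifier that marks proteins for the proteasome and that interferon-gamma induces together with tumour necrosis factor. In the germ-free mice Ubd measured 3.02, 3.38, 2.73 and 2.99 after long-chain fructan, against 4.30, 5.12, 4.82 and 3.80 in conventional mice. The short-chain fructan groups had Ubd values of 3.09, 2.98, 3.43 and 3.14 in germ-free and 4.99, 3.45, 3.61 and 3.94 in conventional mice. Ubd on water was 3.03, 3.12, 3.05 and 3.04 in germ-free mice, against 3.53, 3.53, 3.65 and 3.42 in conventional mice. Germ-free mice lay in a narrow low band, and conventional mice ranged widely after both fructans, with replicates 2 and 3 after long-chain and replicate 1 after short-chain the highest. The group means of Ubd, 3.03 to 4.51, were under the array medians of 4.92 to 4.98, so that low levels may not stand clear of background. Ubd differed by -1.48, -0.84 and -0.47 (SE 0.24, adjusted p 9.6e-05, 0.019 and 0.22), and the water value was not called. Without conventional replicate 1 the short-chain difference was -0.51 and not called.

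Isg15, a ubiquitin-like protein attached to many targets, differed by -0.66, -0.67 and -0.38 and Usp18, the protease that removes it, by -0.67, -0.58 and -0.42. The short-chain and long-chain values of both were called, and the Usp18 value after short-chain was -0.30, not called, without conventional replicate 4, with conventional replicate 1 or germ-free replicate 1 left out ending the call as well. The 2 probe sets that Dtx3l shares with Parp9, which work as a pair in ubiquitin and ADP-ribose signalling, differed by -0.74, -0.46 and -0.41 and by -0.77, -0.58 and -0.43, and each of these values was called. The water calls were lost when single mice were left out (-0.31 at the closest to 0), namely germ-free replicate 3 for both probe sets, conventional replicates 1 and 3 for the first and germ-free replicate 2 for the second, and the short-chain call of the first was lost without conventional replicate 1 (-0.37).

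The other induced genes were lower in germ-free mice for 3 of 3 after long-chain fructan, 2 after short-chain and 2 on water. Xaf1 encodes a protein that favours apoptosis. For Xaf1, germ-free mice had 5.15, 4.81, 4.77 and 4.55 and conventional mice had 5.74, 6.02, 5.84 and 5.35 after long-chain fructan. With short-chain fructan, Xaf1 was 4.82, 5.14, 5.30 and 4.64 in germ-free and 5.91, 5.44, 5.39 and 6.25 in conventional mice. Water gavage gave Xaf1 values of 4.87, 4.99, 4.46 and 4.94 in germ-free mice and 5.74, 5.71, 5.78 and 5.85 in conventional mice. The germ-free and conventional mice were apart, with germ-free short-chain replicate 3, at 5.30, just under conventional long-chain replicate 4, at 5.35. Xaf1 differed by -0.92, -0.77 and -0.95 (SE 0.18, adjusted p 0.00058, 0.003 and 0.00042). Ifi35 encodes an interferon-induced leucine zipper protein. Ifi35 values were 7.06, 6.80, 6.67 and 6.56 in germ-free mice and 7.32, 7.19, 7.24 and 7.22 in conventional mice that received long-chain fructan. Short-chain fructan left Ifi35 at 7.11, 7.13, 6.96 and 7.01 in germ-free mice, against 7.28, 7.10, 7.30 and 7.54 in conventional mice. Ifi35 stood at 7.14, 7.12, 6.87 and 7.02 in germ-free mice on water, against 7.34, 7.14, 7.14 and 7.36 in conventional mice on water. Groups were apart after long-chain fructan only. Ifi35 differed by -0.47, -0.25 and -0.21 (SE 0.096, adjusted p 0.0011, 0.083 and 0.17), and only the long-chain value was called.

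The remaining effectors lower in germ-free mice after all 3 gavages were Oas3, an oligoadenylate synthetase (-0.63, -0.90 and -0.58), and Mx2, of the dynamin-like GTPase family (-0.65, -0.70 and -0.56). The same held for the ligase gene Herc6 (-0.90, -0.92 and -0.94) and for the chaperone gene Rtp4 (-0.94, -0.74 and -0.70). On water Mx2 was -0.37, under the fold threshold, without conventional replicate 3, and its call was also lost without germ-free replicate 3. The Oas3 call, with an adjusted p of 0.06 on water, was lost there without conventional replicate 1 or 4 or germ-free replicate 3 or 4, and after long-chain fructan without conventional replicate 3 or germ-free replicate 2. Bst2 differed by -0.51, -0.38 and -0.27, of which the first was called, and Oasl1, a relative of Oasl2, by 0.01, -0.53 and -0.25, of which the short-chain value was called, though not without conventional replicate 4 or germ-free replicate 1 or 3. Among the genes called after no gavage, Dhx58, a regulator of the RNA sensors, differed by -0.41, -0.36 and -0.50, Oas2 by -0.22, -0.08 and -0.18, Isg20, an exonuclease, by 0.02, -0.04 and -0.19 and Mx1, the relative of Mx2, by -0.07, 0.25 and 0.25. Cmpk2 differed by -0.29, 0.25 and -0.03. Across the 40 genes the differences ran from -2.79 to 0.02 after long-chain fructan, from -2.27 to 0.25 after short-chain and from -2.34 to 0.25 on water. Members of the Ifit, Oas, Gbp and Mx families resemble each other in sequence, so a probe set of one may bind RNA of another.

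**Figure D3:**
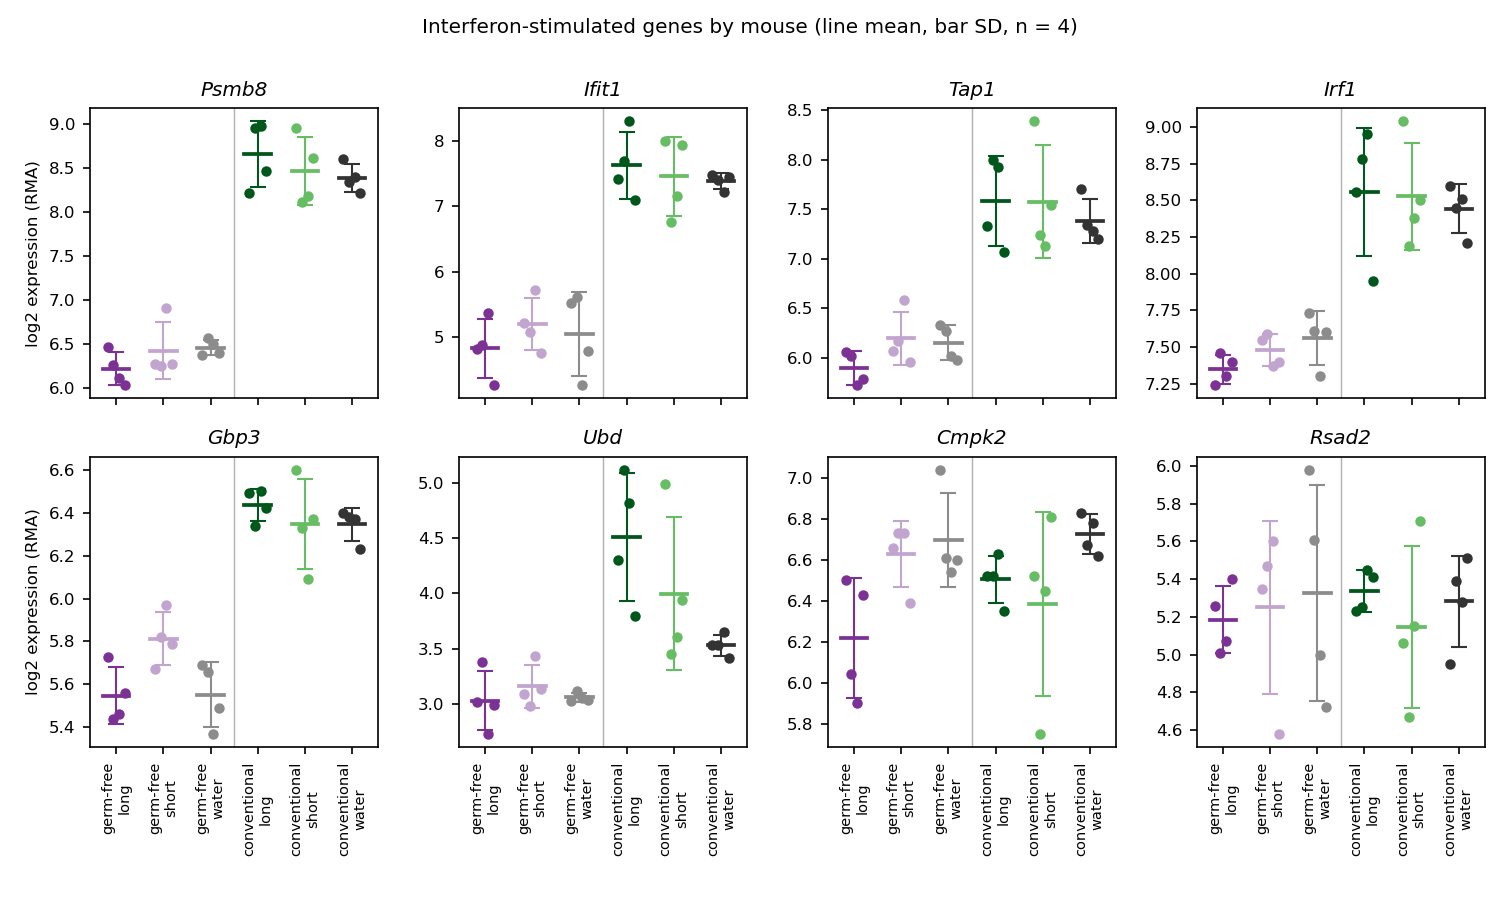
Log2 expression of 8 genes in each mouse (points), with the group mean (line) and SD (bar), germ-free groups on the left of each panel and conventional groups on the right; each panel has its own axis, which does not start at 0. Psmb8, Ifit1, Tap1, Irf1 and Gbp3 show no overlap between germ-free and conventional mice, Ubd is highest in conventional mice after long-chain fructan, and Cmpk2 and Rsad2 overlap.

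Other genes of the interferon system were read from lists written for this purpose. The 13 interferon genes with a probe set differed by -0.21 to 0.26 after long-chain fructan, -0.19 to 0.65 after short-chain and -0.19 to 0.43 on water, and the 2 values that were called were both higher in germ-free mice. Ifne, an epithelial interferon, was higher on water (0.43, adjusted p 0.052), and Ifnl2, a type III interferon whose probe set may also bind RNA of its close relative, was higher after short-chain fructan (0.65, adjusted p 0.016). The Ifne call was lost on leaving out any of the 8 mice but germ-free replicate 3 (0.38 to 0.45), and the Ifnl2 call without conventional replicate 3 (0.46). Apart from Ifnl2, the group means of these genes were 2.23 to 4.33, under the array medians, so that their levels may not stand clear of background. Ifng differed by 0.09, -0.19 and -0.06 after long-chain, short-chain and water gavage.

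Of 24 genes for receptors and signalling, 3 were lower after long-chain fructan (6.26% of all genes), 3 after short-chain (4.47%) and 2 on water (5.96%). Irf8, a factor of myeloid and B cells, was lower after each gavage (-1.0, -1.0 and -0.81). Socs3, an inhibitor of cytokine signalling, was lower after long-chain (-1.62) and passed the thresholds on water (-1.02), Tlr3, the endosomal sensor of double-stranded RNA, after long-chain (-0.46) and Socs1, an inhibitor of interferon signalling, after short-chain (-0.46). On water Socs3 was 5.95, 5.40, 5.66 and 5.34 in germ-free mice, against 5.51, 7.46, 7.73 and 5.71 in conventional mice, of which replicates 1 and 4 lay in the germ-free range. That Socs3 call was lost without conventional replicate 3 (-0.64) or 2 (-0.73) or germ-free replicate 2 or 4, and the Socs1 call without conventional replicate 1 (-0.32). Among 54 further interferon-stimulated genes, 30, 25 and 29 were lower and 0, 1 and 0 higher. Those with the smallest p were Ido1, which degrades tryptophan (-2.95, -2.58 and -2.05), Psmb10, another immunoproteasome subunit (-1.01, -0.78 and -0.78), Ly6e (-0.89, -0.76 and -0.93) and Psme1, a proteasome activator (-0.49, -0.69 and -0.56).

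MHC class I genes were lower for 9, 6 and 7 of 15, and 1 was higher after each gavage. H2-Q6 (-1.41, -1.04 and -1.12), H2-M3 (-0.94, -0.56 and -0.82) and H2-T23 (-0.82, -0.61 and -0.60) were lower. H2-Q10, known as a secreted class I molecule of the liver, was higher (0.50, 0.45 and 0.65). These genes are close copies of one another, and a probe set may bind RNA of several.

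Among conventional mice, 1 interferon-stimulated gene passed the p and fold thresholds between a fructan and water, and it did not pass the adjustment over all genes. The 3 fructan comparisons within a colonization status share mice and are given side by side. After long-chain fructan against water, 1 of 40 genes was called (0.313% of all genes), Ubd, and 2 had an unadjusted p under 0.05 (5.67% of all genes). The median difference was 0.06, against -0.016 for all genes. The 4 mice after long-chain fructan, with the Ubd values above, were all higher than the 4 water mice. Ubd averaged 4.51 ± 0.58 after long-chain fructan, against 3.53 ± 0.09 with water (SD, n = 4 each). Both means were under the array medians of 4.92 to 4.98. The difference was 0.98 (SE 0.24, 1.97-fold, p = 0.00042 by limma, exact permutation p = 0.029), with an adjusted p of 0.57. It was 0.78 to 1.22 when single mice were left out, and it was called each time.

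After short-chain fructan against water, limma called 0 of 40 genes (0.409% of all genes) and found 3 with an unadjusted p under 0.05 (5.22% of all genes), and the fits with a common prior and with the intensity-based moderated t also called 0 and found 3. These 3 were Bst2 (0.29), a tether of budding virus, Irgm1 (0.37) and Cmpk2 (-0.34), a mitochondrial nucleotide kinase. Their groups overlapped. The median difference was 0.07, against -0.017 for all genes. Psmb8 differed by 0.08 with a 95% interval of -0.27 to 0.43, and Ifit1 by 0.08 with -0.52 to 0.67.

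Set against short-chain, long-chain fructan in conventional mice gave 0 calls of 40 by limma (0.213% of all genes), with 1 gene at an unadjusted p under 0.05 (3.63% of all genes), Ubd, and 0 calls with a common prior or the intensity-based moderated t. The 2 fructans differ in the length of their fructose chains and were given at the same dose. Ubd differed by 0.51 (95% interval 0.01 to 1.01, adjusted p 1), Psmb8 by 0.19 (-0.16 to 0.53), Ifit1 by 0.16 (-0.43 to 0.75) and Gbp3 by 0.09 (-0.12 to 0.29). The median of the 40 genes was -0.01.

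The spread among mice of 1 group was wide for these genes. Over all 24 mice the median within-group SD of the 40 genes was 0.263, against 0.156 for all 18820 genes. Among the conventional short-chain mice, replicate 4 was the highest of its group for 21 genes and replicate 1 for 18, leaving 1 gene for replicate 2 and none for replicate 3. Their median level relative to the mean of all mice was 0.55 and 0.49 in replicates 1 and 4, against 0.05 and 0.12 in replicates 2 and 3. The summed T cell markers of the same mice were 887 and 650 in replicates 1 and 4 and 496 and 592 in replicates 2 and 3, and the summed macrophage and dendritic cell markers 976 and 987, and 898 and 907. Among the conventional long-chain mice, replicate 3 was highest for 27 genes and replicate 4 lowest for 27. The conventional water mice were closer together, with medians of 0.24 to 0.35. Germ-free groups also had mice that led their group, with short-chain replicate 3 highest for 25 genes, water replicate 2 for 23 and long-chain replicate 1 for 18. The part of the cell markers in this spread was not tested.

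In germ-free mice most interferon-stimulated genes were below their water level after long-chain fructan, by little. The median difference was -0.14, against 0.003 for all genes, and 34 of 40 genes were below 0 (49.1% of all genes). Of the 40, 2 were called (0.855% of all genes), Parp14 and Cmpk2, and 5 had an unadjusted p under 0.05 (8.74% of all genes). Parp14 averaged 7.41 ± 0.18 after long-chain fructan, against 7.82 ± 0.16 with water (SD, n = 4 each), and its groups, listed above, did not overlap. The difference was -0.41 (SE 0.14, p = 0.0081 by limma, exact permutation p = 0.029, adjusted p = 0.41). Cmpk2, which is named because it is one of these few calls, was 6.50, 6.04, 5.90 and 6.43 after long-chain fructan, against 7.04, 6.61, 6.54 and 6.60 on water. The 2 groups were apart, with water replicate 1 high. Cmpk2 differed by -0.48 (SE 0.16, p = 0.0055 by limma, exact permutation p = 0.029, adjusted p = 0.39). Both calls were lost without germ-free water replicate 1 or without germ-free long-chain replicate 2 or 3, and the Parp14 call also without water replicate 2 or long-chain replicate 4. The median level of the 40 genes relative to the mean of all mice was -0.46 to -0.34 in the 4 long-chain mice, against -0.39 to -0.16 in the 4 water mice, so that these ranges overlapped. Markers of some other cells moved with the genes. Below 0, without a call by p and fold, were 5 of 6 enterocyte markers (median -0.14) and 7 of 8 T cell markers (-0.17). So were 6 of 7 macrophage and dendritic cell markers (-0.13). Plasma cell markers were below 0 for 3 of 5 (-0.04), with 1 called lower. Other lists did not move down, with 0 of 4 smooth muscle markers (0.17) and 0 of 4 adipocyte markers (0.28) below 0. The numbers below 0 were 1 of 4 for goblet cells (0.01), 1 of 3 for Paneth cells (0.13) and 1 of 3 for plasmacytoid dendritic cells (0.06). B cell markers went the other way, with 3 of 5 called higher (median 0.44). Their summed level was 89.6 to 172 after long-chain fructan and 78.6 to 98.7 on water. Long-chain replicates 3 and 4 were high, at 153 and 172, and replicates 1 and 2, at 95.5 and 89.6, lay within the water range. The part of these markers in the shift was not tested.

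After short-chain fructan against water, limma called 0 of 40 genes in germ-free mice (0.579% of all genes), with 2 at an unadjusted p under 0.05 (5.71% of all genes), and the fits with a common prior and with the intensity-based moderated t called 0. The median difference was 0.03. Psmb8 differed by -0.03 (95% interval -0.38 to 0.31) and Ifit1 by 0.15 (-0.44 to 0.74). The Gbp3 difference was 0.26 and missed the threshold (p = 0.015 by limma, exact permutation p = 0.057, adjusted p = 0.79).

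Set against short-chain fructan, long-chain in germ-free mice gave a median difference of -0.19 (-0.013 for all genes) and 35 of 40 genes below 0 (53.4% of all genes). Below 0 were also 6 of 6 enterocyte markers (median -0.12), 7 of 7 macrophage and dendritic cell markers (-0.14) and 5 of 8 T cell markers (-0.13). The same held for 4 of 4 smooth muscle markers (-0.12) and 4 of 4 adipocyte markers (-0.41), and for 1 of 4 goblet cell markers (0.02). B cell markers were called higher for 2 of 5 (median 0.55). The summed B cell levels of long-chain replicates 1 and 2 lay within the short-chain range of 76.3 to 98.9. The part of these markers in the shift was not tested. The median level of the 40 genes relative to the mean of all mice was -0.46 to -0.34 in the long-chain mice. In the short-chain mice it was -0.39 to -0.10, so that these ranges overlapped. Short-chain replicate 3 was the highest of its group for 25 of the 40 genes, and without it the median difference was -0.13. Gbp2 alone was called (1.41% of all genes). Its values above overlapped, long-chain replicate 1 and short-chain replicate 4 being at the same level. Gbp2 averaged 5.87 ± 0.15 after long-chain and 6.36 ± 0.31 after short-chain fructan (SD, n = 4 each). The difference was -0.49 (SE 0.18, adjusted p = 0.28), at the very edge of the p threshold, and the call was lost without short-chain replicate 1, 2 or 3 or long-chain replicate 2, 3 or 4. A total of 9 genes had an unadjusted p under 0.05 (12.7% of all genes).

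At an adjusted p under 0.05, limma called 0 of the 40 genes in each of the 6 fructan comparisons, as did the fits with a common prior and with the intensity-based moderated t, and 0% of all 18820 genes passed with limma. The numbers of the 40 genes at an unadjusted p under 0.05 with limma were 2 and 3 for long-chain and short-chain against water and 1 for long-chain against short-chain in conventional mice, and 5, 2 and 9 for the same comparisons in germ-free mice.

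**Figure D4:**
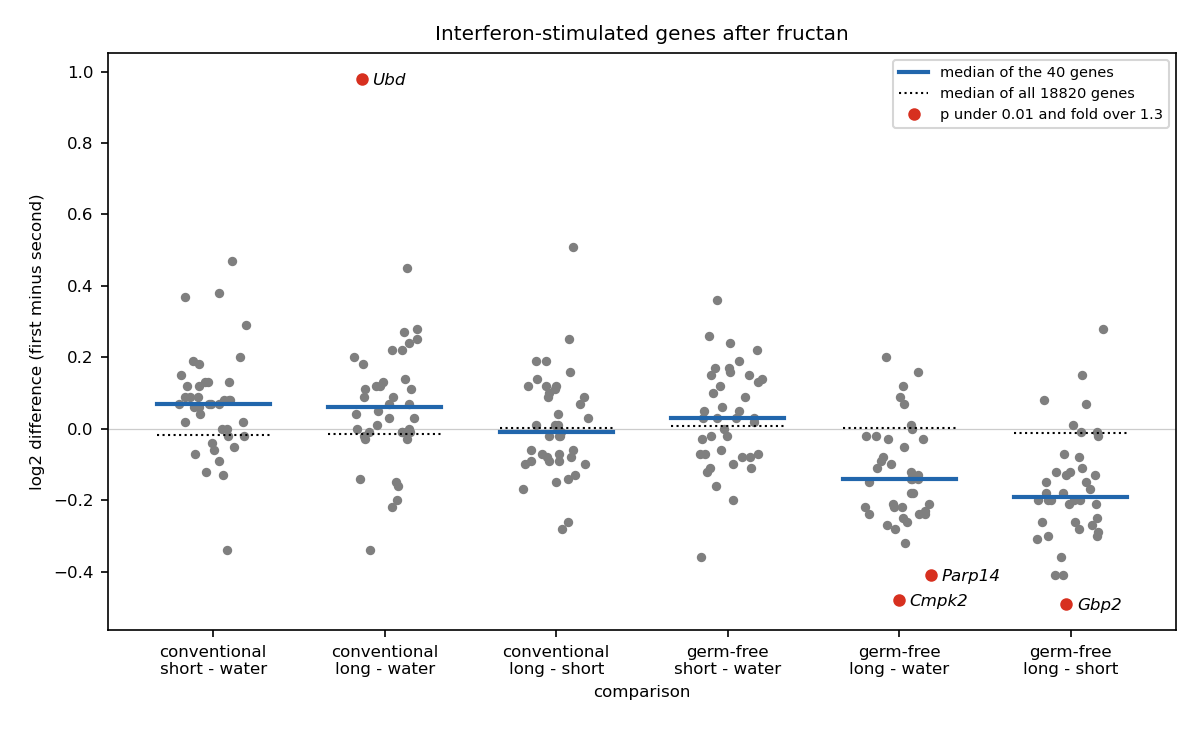
Each point is the log2 difference of 1 of the 40 genes in 1 of the 6 fructan comparisons, in the direction given under the axis. Blue lines are medians of the 40 genes, dotted lines those of all 18820 genes, and red points are called genes with their names. The germ-free comparisons with long-chain fructan have medians of -0.14 and -0.19, and Ubd stands apart at 0.98 in conventional mice.

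Whether a fructan acted differently in germ-free than in conventional mice was tested as an interaction. For long-chain fructan against water, 1 of 40 genes was called (0.531% of all genes), Ubd, with an interaction of -1.01, germ-free minus conventional (SE 0.34, 95% interval -1.72 to -0.30, adjusted p = 1). Ubd changed by -0.03 in germ-free mice and by 0.98 in conventional mice. The germ-free values of Ubd, 2.73 to 3.43, were under the array medians of 4.92 to 4.98 and may not stand clear of background. The median interaction of the 40 genes was -0.21, against 0.013 for all genes, and 35 of 40 were below 0 (46.4% of all genes). With single mice left out this median was -0.27 to -0.13, with -0.13 in the fit without conventional long-chain replicate 3. For short-chain fructan limma called 0 of 40 (0.707% of all genes), 0 had an unadjusted p under 0.05 (5.45% of all genes), and the other priors gave 0 as well; for long-chain fructan 3 did (3.74% of all genes). The Ubd interaction was lost in 11 of 16 fits that left out 1 mouse, while its size stayed between -1.25 and -0.81.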

How the data were processed

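Expression in the terminal ileum was measured with 1 array per mouse, in 6 groups of 4 mice named by the labels. The authors deposited log2 values that they had background-corrected, normalized and summarised by RMA over all 24 arrays with the affyPLM package; the study's methods name a remapped chip definition, whereas the deposited table is keyed by the manufacturer's own numbering, and the scanner files were not used here. Of the probe sets, 21218 had 1 gene symbol in the platform annotation, 1881 had several and 12457 had none. For each of 18820 genes the brightest probe set, by its mean on the 24 arrays, was used.

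Group means were fitted to the 24 arrays with limma 3.58.1 in R 4.3.3 with an intensity trend in the prior. A gene was called at p under 0.01 and a fold over 1.3, and Benjamini-Hochberg values were taken over all genes. There were 9 comparisons and 2 interactions. Single genes were also compared by exact two-sided permutation over the 35 divisions of 8 mice. The precision is limited by 4 mice per group. Scan dates and slides were not used here.

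Alternatives were a common prior, an intensity-based moderated t, only the 12 or 8 arrays concerned, cyclic loess between arrays, array weights, leaving out dim genes (those not over log2 5 on at least 4 arrays), the mean of a gene's probe sets, the replicate number as a block, and leaving out each mouse. The fits were tested on simulated data.

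Per-mouse values are given for the members called in at least 1 comparison with the smallest p, at most about 20, and for the 2 members of each role with the smallest p; others are given by differences and counts. Lists for interferon genes, receptors and signalling, other interferon-stimulated genes, MHC class I and cell type markers were written by hand, and at most 4 genes of each are named. The members and lists were chosen with earlier results of these data known. Promoter sequences and gene positions are from RefSeq (GRCm38.p6).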

Additional observations from a re-analysis of the deposited data

Results flagged for a closer look

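In 11 of 240 checks (40 genes in 6 groups of 4 mice), 1 mouse stood far from the other 3 of its group, and chance gives about 1 in 20. Conventional short-chain replicate 1 was high for Gbp2 (7.66, next 6.73) and Gbp7 (8.57, next 7.82). Conventional long-chain replicate 3 was high for Irf7 (8.44, next 7.99) and Oas3 (5.17, next 4.71). Among germ-free mice, short-chain replicate 3 was high for Psmb8 (6.91, next 6.27), long-chain replicate 2 for Mx2 (3.88, next 3.67) and water replicate 1 for Cmpk2 (7.04, next 6.61), and water replicate 4 was low for Oasl1 (7.73, next 8.26). Conventional water mice were low for Ifit2 (replicate 1, 4.03, next 4.42), Herc6 (replicate 2, 6.06, next 6.28) and Gbp3 (replicate 4, 6.23, next 6.37).

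The change of Ubd after long-chain β2→1-fructan against water differed between germ-free and conventional mice by -1.01 in the interaction test, with an adjusted p of 1 over all genes. Germ-free values of Ubd, 2.73 to 3.43, may not stand clear of background.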

How the results depend on the processing

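Every difference between germ-free and conventional mice that was called kept its sign in each fit that contained its gene. Of these calls, 18 of 24 on water, 23 of 30 after short-chain and 30 of 32 after long-chain fructan held in every such fit. The fit without dim genes did not contain Ubd, Mx2 or Ifit2. No count of these calls changed by over 1.5 times. In germ-free mice the long-chain against water count was 1 with 1 prior for all genes, 1 with cyclic loess and 0 with array weights, and the long-chain against short-chain count was 2 with the 12 or the 8 arrays concerned and 0 with 1 prior, cyclic loess, array weights, dim genes left out or the mean of a gene's probe sets. Leaving out dim genes, which kept 35 members and removed Ubd, gave 0 for long-chain against water in conventional mice and 0 for the long-chain interaction. The probe sets of Irf1 differed in the size of the difference.

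With single mice left out, the germ-free against conventional counts were 31 to 32 (long-chain), 24 to 32 (short-chain) and 20 to 26 (water), with medians of -0.77 to -0.68, -0.66 to -0.50 and -0.57 to -0.47. Among conventional mice the counts were 1 to 2 for long-chain and 0 to 2 for short-chain against water, and 0 to 2 for long-chain against short-chain; among germ-free mice they were 0 to 3, 0 to 1 and 0 to 2. The interaction counts were 0 to 3 for long-chain and 0 to 0 for short-chain fructan. The highest counts came without conventional long-chain replicate 4 (conventional long-chain against water, interaction), conventional short-chain replicate 2 (short-chain against water) or 1 (long-chain against short-chain), germ-free water replicate 3 (long-chain against water) or 4, or germ-free short-chain replicate 2 (short-chain against water), and germ-free short-chain replicate 4 or long-chain replicate 1 (long-chain against short-chain).

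The labels tie no replicate number to a shared litter or day, and the deviations of same-numbered mice from their group means had a mean correlation of 0.004 over 60 pairs of arrays (-0.14 to 0.18), so the numbers do not pair the mice. With the replicate number as a block the counts were 32, 29 and 24 for germ-free against conventional (long-chain, short-chain, water), 1, 0 and 0 among conventional mice (long-chain against water, short-chain against water, long-chain against short-chain), 2, 0 and 1 among germ-free mice, and 1 and 0 for the interactions.

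With 4 mice per group, the 95% interval of Ifit1 was -0.52 to 0.67 for short-chain fructan against water in conventional mice. Changes within such intervals were not excluded. Differences of dim probe sets are compressed.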
